A study of Mus musculus with 9 samples.

Results

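Expression of 8 genes that mark B cells was examined in the livers of mice given an agonist antibody to CD40. The genes were Cd79a, Cd79b, Blk, Ms4a1, Cd22, Fcer2a, Bank1 and Pax5, listed by name as B cell genes rather than by a threshold on their values, though earlier results of these data were known, and all 8 were found among the 24341 genes of the deposited expression table. The study asked how systemic activation of CD40, a receptor on B cells and other antigen-presenting cells, affects the liver. Livers of wild-type (WT) C57BL/6 mice were collected 48 hours after treatment with the rat antibody FGK45 (anti-CD40; 3 mice, numbered 2, 5 and 9) or with PBS (control; 6 mice, numbered 3, 4, 7, 8, 11 and 12). Mice in the study were sex matched and 8 to 12 weeks old by default, and the labels give neither the sex nor the age of each mouse. RNA of bulk liver was sequenced from the 3′ end of transcripts, and each gene has 1 value per mouse in FPKM (sequenced fragments scaled to transcript length and library size).

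A limit of these animals bears on every result here. By the methods of the study, anti-CD40–treated mice were left out where B cells in blood did not fall in the day after treatment, and whether this was applied to these 3 mice is not stated. A measure of B cells in blood may thus have entered the choice of treated mice. In bulk liver, a change in the number of B cells and a change in RNA per B cell cannot be told apart, and whether blood was flushed from the livers is not stated.

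B cells recognise antigen through a surface immunoglobulin that signals by way of the CD79a and CD79b chains. Coreceptors and Src family kinases amplify or restrain that signal, and PAX5 holds cells to the B lineage until they become plasma cells. CD40 is the receptor through which helper T cells activate B cells, and the normal liver contains few B cells beside its hepatocytes, endothelium and Kupffer cells.

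Promoter sequence from RefSeq (GRCm38.p6, the mm10 build) was found for Bank1, Cd79a, Cd22, Fcer2a and Pax5. The 250 bases before the start of Bank1 and of Fcer2a (the outermost of its 3 listed starts) are shown because these genes had the smallest and the largest increase among the members tested. The Bank1 window is chr3:136326067-136326316 and the Fcer2a window is chr8:3694175-3694424, both on the minus strand and written 5′ to 3′ in the direction of the gene. Capitals mark the core letters bound by EBF1 (CCCNNGGG) and by Ets factors (GGAAGT, here on the opposite strand).
Bank1: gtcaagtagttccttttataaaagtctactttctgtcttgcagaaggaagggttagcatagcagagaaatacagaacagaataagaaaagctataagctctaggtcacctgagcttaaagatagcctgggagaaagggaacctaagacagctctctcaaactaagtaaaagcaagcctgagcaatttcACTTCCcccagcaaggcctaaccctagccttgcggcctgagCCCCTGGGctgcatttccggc
Fcer2a: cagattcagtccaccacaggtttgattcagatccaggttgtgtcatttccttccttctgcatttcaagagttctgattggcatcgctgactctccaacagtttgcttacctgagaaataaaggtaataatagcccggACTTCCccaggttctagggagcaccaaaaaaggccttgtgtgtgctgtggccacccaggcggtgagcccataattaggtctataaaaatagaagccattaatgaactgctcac

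The window of Bank1 held both cores and that of Cd22 the EBF1 core. Those of Cd79a and of the outermost Fcer2a start held the Ets core. The windows of Pax5 and of the other Fcer2a starts held neither. The Cd22 window (chr7:30879029-30879278) lies inside the span given for the gene (chr7:30865404-30880342), not before it. On both strands, the EBF1 core occurred in 11.9% and the Ets core in 19.8% of 32536 promoter windows of the same length. The octamer ATGCAAAT, bound by POU2F factors and present in 1.62% of windows, was found in none of the members' windows, nor was the NF-kB consensus, present in 7.28%. These are matches of letters and describe the windows only.

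Of the 8 genes, 7 passed the filter on low values (mean of at least 0.1 FPKM over the 9 mice), and all 7 were higher after anti-CD40 in limma's test with Benjamini-Hochberg adjustment over 13807 genes. Cd79a and Blk passed the filter only through the anti-CD40 mice, since their control means were 0.0878 and 0.0672 FPKM, so the count of 7 is no support on its own, and both were also called when no filter was used. For each of the 7, every anti-CD40 mouse was above every control mouse. Of all genes tested, 23.5% were called higher and 21.7% lower, and in 22.7% the groups did not overlap with the anti-CD40 mice above. These shares stand for 3240 genes higher and 2990 lower, and with the abundant acute phase genes Saa1, Saa2 and Saa3 left out and the mice rescaled 5635 were higher and 1647 lower, while the calls of the 7 genes did not change. The median log2 fold change was 2.27 over the 7 genes and 0.01 over all genes tested. The eighth gene, Pax5, was at or near the floor of the table in every mouse. An exact permutation test, with all 84 ways to draw 3 of the 9 mice, gave p = 0.0238 (2-sided) for each of the 7 genes, the smallest value that 3 mice against 6 allow. Fold changes below are differences in log2(FPKM + 0.1), which understate the change of genes with low values. The limma p-values set the difference between groups against the spread between these mice, with variances moderated across genes.

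**Figure D1:**
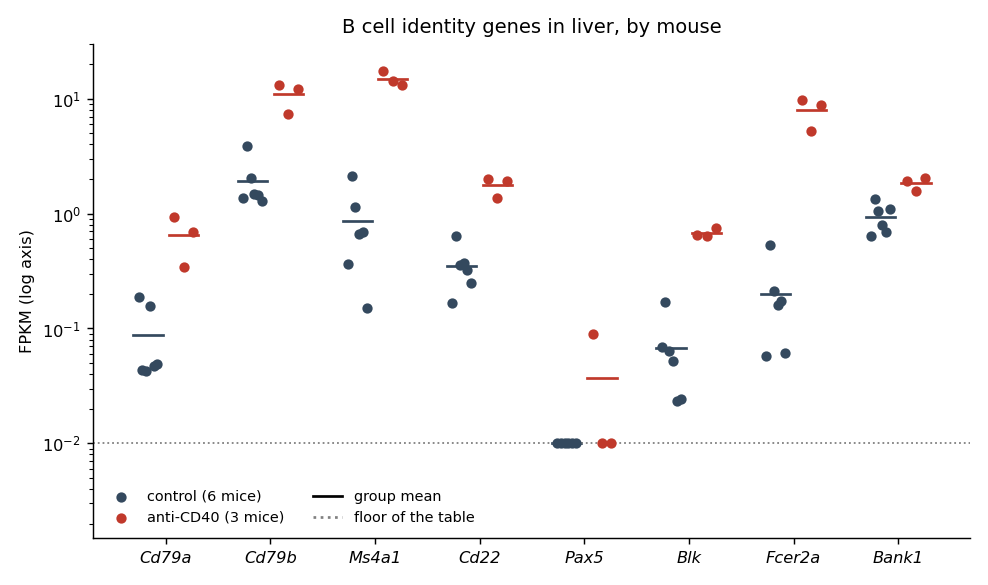
FPKM of the 8 genes on a log axis, with 1 point per mouse, a line at each group mean and a dotted line at the table's floor of 0.01 FPKM. The anti-CD40 points lie above all control points for each gene except Pax5, for which only anti-CD40 mouse 2 is above the floor.

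Both signalling chains of the B cell receptor rose. Cd79b (chr11:106311341-106314529, minus strand), which encodes the Igβ chain, was at 13.1, 7.40 and 12.2 FPKM in anti-CD40 mice 2, 5 and 9. In control mice 3, 4, 7, 8, 11 and 12 it was at 1.37, 3.91, 2.04, 1.48, 1.44 and 1.29 FPKM. Control mouse 4 was the highest control and anti-CD40 mouse 5 the lowest treated mouse, and the groups did not overlap. The means were 10.9 ± 3.06 FPKM (SD, n = 3) and 1.92 ± 1.01 FPKM (SD, n = 6), a log2 fold change of 2.51 (SE 0.33, limma adjusted p = 1.68e-04). Cd79a (chr7:24897511-24902197, plus strand), which encodes its partner Igα, was at 0.926, 0.342 and 0.689 FPKM in the anti-CD40 mice. The control mice had 0.187, 0.0432, 0.0430, 0.157, 0.0472 and 0.0495 FPKM, so that mice 3 and 8 stood above the other 4 controls. The log2 fold change of Cd79a was 1.99 (SE 0.34, limma adjusted p = 9.26e-04).

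The values of Cd79a rested on few reads. Low FPKM values are whole multiples of what 1 read is worth, and the smallest whole numbers of reads that fit all 9 mice were 23, 8 and 15 for Cd79a after anti-CD40 and 4, 1, 1, 3, 1 and 1 in the controls. The exact 95% Poisson interval, which covers counting error only, was 3.45 to 15.8 reads for anti-CD40 mouse 5 and 1.09 to 10.2 reads for control mouse 3, and these intervals overlap. Cd79b rested on 153 to 288 reads in anti-CD40 mice and 23 to 80 in controls, and the intervals of its nearest mice (130 to 179 and 63.4 to 99.6 reads) did not overlap.

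Blk (chr14:63372837-63417187, minus strand), a Src family kinase of B cells that phosphorylates the receptor's signalling chains, had the smallest spread among the anti-CD40 mice relative to its level. It was at 0.656, 0.634 and 0.748 FPKM after anti-CD40 and at 0.0692, 0.171, 0.0637, 0.0516, 0.0233 and 0.0244 FPKM in the controls. Control mouse 4 was again highest, and no control reached the lowest treated mouse. The log2 fold change was 2.27 (SE 0.27, limma adjusted p = 7.40e-05), from 30 to 33 reads in anti-CD40 mice and 1 to 8 in controls.

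The largest increases were those of Fcer2a and Ms4a1, which encode surface proteins of mature B cells. Fcer2a (chr8:3681737-3694174, minus strand) encodes CD23, the low-affinity IgE receptor, which marks follicular B cells and is also found on follicular dendritic cells. It was at 9.68, 5.24 and 8.88 FPKM in the anti-CD40 mice and at 0.0572, 0.529, 0.211, 0.160, 0.173 and 0.0605 FPKM in the controls. Every treated mouse lay far above the highest control, mouse 4. The means were 7.93 ± 2.37 FPKM (SD, n = 3) and 0.198 ± 0.173 FPKM (SD, n = 6), a 40.0-fold ratio, and the log2 fold change of 4.87 (SE 0.41, limma adjusted p = 8.73e-06) ranked 48 among 13807 genes. Fcer2a had 200 to 393 reads in anti-CD40 mice and 2 to 20 in controls.

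Ms4a1 encodes CD20, a membrane protein of B cells. It was at 17.4, 14.3 and 13.2 FPKM after anti-CD40 and at 0.368, 2.14, 1.15, 0.665, 0.686 and 0.150 FPKM in the controls, so that the control values spanned a wider range than those of the other members relative to their mean, apart from Fcer2a. Control mouse 12 was lowest and mouse 4 highest, and mouse 9 rather than mouse 5 was the lowest treated mouse. The ratio of means was 17.4 and the log2 fold change 4.30 (SE 0.56, limma adjusted p = 1.42e-04, rank 75). The table gives Ms4a1 the position chr19:11196817-11299884, shared with Ms4a5 and 4930526L06Rik, both at the floor in all 9 mice, whereas GENCODE places Ms4a1 at chr19:11249675-11266241 on the minus strand.

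Cd22 (chr7:30865404-30880342, minus strand) encodes an inhibitory lectin that dampens B cell receptor signalling. It was at 1.99, 1.37 and 1.94 FPKM after anti-CD40 and at 0.167, 0.643, 0.358, 0.373, 0.323 and 0.250 FPKM in the controls. Its order of mice was that of Cd79b at both ends of the gap, with control mouse 4 below anti-CD40 mouse 5. The log2 fold change was 2.10 (SE 0.29, limma adjusted p = 2.19e-04).

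The smallest increase was that of Bank1 (chr3:136053364-136326046, minus strand), an adaptor that links the B cell receptor to calcium release. It was at 1.93, 1.56 and 2.03 FPKM after anti-CD40 and at 0.637, 1.34, 1.05, 0.790, 0.695 and 1.09 FPKM in the controls. The groups did not overlap, but control mouse 4 came close to anti-CD40 mouse 5, and with quantile normalization the groups overlapped (log2 fold change 0.63, still called by limma). The log2 fold change was 0.94 (SE 0.23, limma adjusted p = 0.00665), which stood at percentile 84.7 of all genes tested. The recovered reads of the nearest pair, 84 in control mouse 4 and 99 in anti-CD40 mouse 5, had overlapping Poisson intervals (67.0 to 104 and 80.5 to 121).

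Pax5, the transcription factor of B lineage commitment, gave almost no signal. It was listed at 0.0901 FPKM in anti-CD40 mouse 2 and at the floor of 0.01 FPKM in the other 8 mice. With only 1 mouse above the floor, the fit of whole reads returns 1 read whatever the true number, so the reads of mouse 2 are not known. The exact 95% Poisson interval of a count of 0 reaches 3.69 reads, and that of 1 read would reach 5.57. With 8 mice at the floor, these values cannot show whether Pax5 changed. Its mean was below the filter, and the exact permutation test gave p = 0.667 (2-sided; 3 against 6 mice). The table's position for Pax5 (chr4:44531506-44710440) ends 6749 bases short of the 3′ end that GENCODE gives the gene on the minus strand, in a library made from 3′ ends. That position is shared with 5730488B01Rik, which was at 0.300, 0.0228 and 0.0978 FPKM after anti-CD40 and at no more than 0.0251 FPKM in any control.

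**Figure D2:**
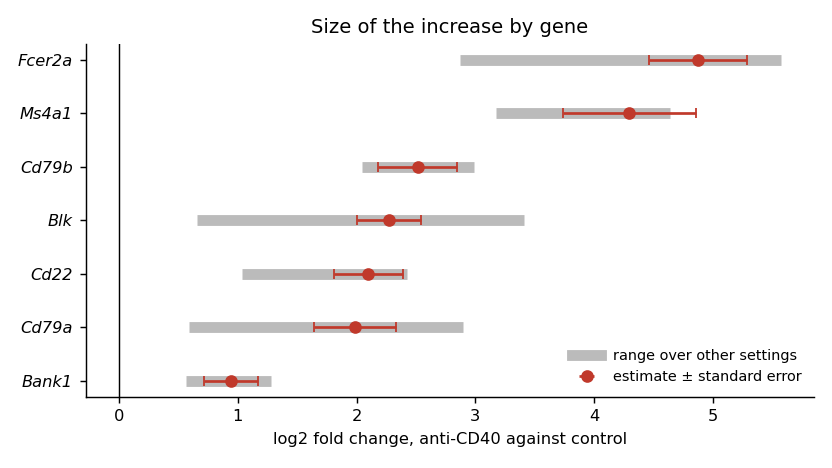
Log2 fold change of the 7 genes tested, anti-CD40 against control, with points and bars for the estimate and its standard error and grey bands for the range over the other processing settings. Fcer2a and Ms4a1 stand apart at 4.87 and 4.30, the other genes lie between 0.94 and 2.51, and no band reaches 0.

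The members differed from one another in the size of the change. The ratio of 2 members within the same mouse, taken as a difference in log2(FPKM + 0.1), was compared between the groups for 28 pairs. In 19 the groups did not overlap, each with an adjusted exact permutation p of 0.0351 (2-sided, 3 against 6 mice, Benjamini-Hochberg over 28 pairs). Ratios to Pax5 reflect mainly the other gene, and 13 of the 21 ratios without Pax5 were called. The sizes depend on the pseudocount, which weighs most on genes with low values, and 23 of the 28 pairs were called with a pseudocount of 1 and 0 with 0.01.

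Fcer2a rose more than 5 of the other 6 members tested. Its log2 ratio to Cd79b was higher after anti-CD40 by 2.36 (SE 0.12), and by 0.82 with a pseudocount of 1 and 3.00 with 0.01, with the groups apart in each. The log2 ratio of Fcer2a to Bank1 was higher by 3.93 (SE 0.30), the largest difference among pairs without Pax5, and by 2.31 with a pseudocount of 1. Ms4a1 rose more than Cd22 by 2.20 (SE 0.35) and more than Cd79b by 1.78 (SE 0.36), or by 1.13 with a pseudocount of 1. Between Ms4a1 and Fcer2a themselves the difference was -0.57 (SE 0.32, exact permutation adjusted p = 0.174), which was not called and turned to 0.30 with a pseudocount of 1.

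Bank1 rose less than Cd22 by 1.16 (SE 0.16), less than Blk by 1.33 (SE 0.17) and less than Cd79b by 1.57 (SE 0.23). With a pseudocount of 1 the difference from Blk was 0.09 (SE 0.09, exact permutation adjusted p = 0.462) and no longer called, and that from Cd22 was 0.47. With 0.01 the difference from Blk was 2.39. Its ratio to Cd79a differed by 1.04 (SE 0.41, exact permutation adjusted p = 0.152) and was not called. Cd79a, Cd79b, Cd22 and Blk formed 6 pairs, in none of which the groups separated at the pseudocount of 0.1. Among these, the log2 difference was -0.17 (SE 0.21) for Cd22 against Blk, 0.24 (SE 0.25) for Cd79b against Blk and -0.53 (SE 0.38) for Cd79a against Cd79b. These values do not show the genes to have changed alike. With a pseudocount of 1, 4 of the 6 pairs separated and were called, at -1.46 for Cd79a against Cd79b, 1.01 for Cd79b against Cd22, 1.39 for Cd79b against Blk and 0.38 for Cd22 against Blk. Cd79b against Cd22 was also called with quantile normalization, at 0.68, and Cd79b against Blk turned to -0.80 with recovered reads. With ratios of recovered reads, to which 0.5 was added, 17 of the 28 pairs were called, all among the 19 and with the same sign.

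**Figure D3:**
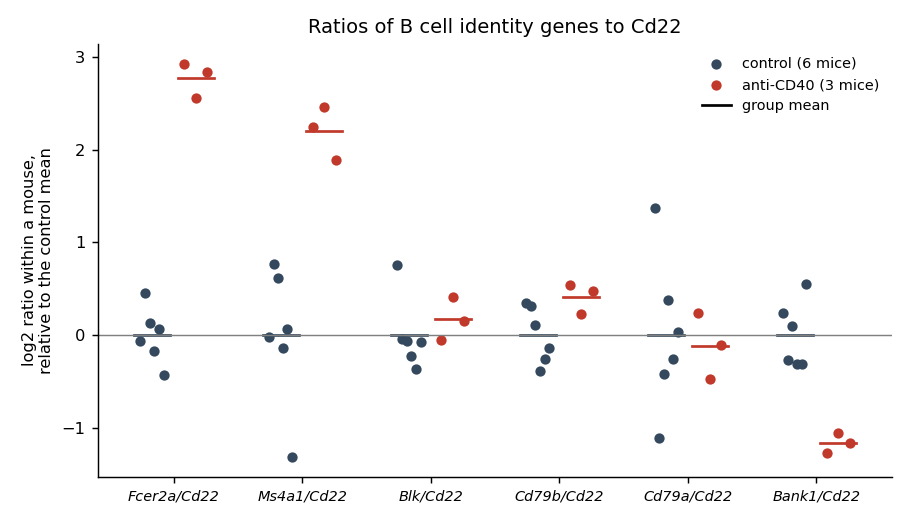
Log2 ratio of 6 members to Cd22 within each mouse, centred on the control mean of each ratio, with 1 point per mouse and a line at each group mean. The anti-CD40 points lie above all controls for Fcer2a and Ms4a1 and below all controls for Bank1, and they overlap the controls for Blk, Cd79b and Cd79a.

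Within groups, the members tended to be high or low in the same mice. Control mouse 4 had the highest control value in 6 of the 7 genes tested, a position it held in 27.4% of all genes tested, and anti-CD40 mouse 5 had the lowest treated value in 6 of 7, against 36.3% of all genes. The exceptions were Cd79a, highest in control mouse 3, and Ms4a1, lowest in anti-CD40 mouse 9. After centring each gene on its group mean, the correlation over the 9 mice between pairs of the 7 genes had a median of 0.72 and ranged from -0.32 to 0.96. Pairs with Cd79a lay between -0.32 and 0.01, and the lowest of the others was 0.39. Values of 1 mouse come from 1 library, so these correlations describe the libraries. With anti-CD40 mouse 5 and control mouse 4 both left out, a choice made after seeing the data, the log2 fold changes of the 7 genes were 1.15 for Bank1, 2.26 for Cd79a, 2.42 for Cd22, 2.46 for Blk, 2.99 for Cd79b, 4.64 for Ms4a1 and 5.39 for Fcer2a, all still called by limma.

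The non-member genes whose group-centred values followed the mean of the 7 genes most closely over the 9 mice were Olfm3 (r = 0.98), Car2 (0.97), Klc1 (0.97), Fbxl2 (0.97) and Klra2 (0.97). Olfm3, Car2 and Fbxl2 were not called between the groups, so they followed the members within groups but not across treatment. Without centring, the closest were Iqgap1, Wdfy4, Parvg, Ppp1r18 and Cyfip2, each with r between 0.995 and 0.997 and each called higher, with log2 fold changes from 1.91 to 3.12.

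Genes of B cell biology outside the 8 members were summarised in lists compiled from general knowledge. The counts of each list stand beside 23.5% of all genes tested called higher and 21.7% called lower. Some genes, such as Chst3 (control mean 0.0429 FPKM) and Ccl20, passed the filter only through the anti-CD40 mice. The counts are therefore no support on their own. Among 20 other B cell markers, 19 were tested, 16 were higher and none was lower, with a median log2 fold change of 2.35. Cr2, which encodes complement receptor CD21, rose by 3.00 (SE 0.37), and Gpr183, a receptor that guides B cells within lymphoid tissue, rose by 3.07 (SE 0.42). Ly6d, an early B lineage marker also found in other cells, was at 371 to 472 FPKM after anti-CD40 and 5.73 to 21.9 FPKM in controls. The other genes of the list that were not called had log2 fold changes of -0.06 for Cd72, 0.24 for Ralgps2 and 0.00 for Cnr2, and Cd24a was called although its groups overlapped.

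Of 14 B lineage transcription factors tested, 11 were higher and 1 was lower, with a median log2 fold change of 1.69. Pou2af1, the B cell coactivator of octamer-binding factors, rose by 4.20 (SE 0.34), Spib by 3.50 (SE 0.36) and Ikzf3, which encodes Aiolos, by 3.03 (SE 0.23). Ebf1, which specifies the B lineage together with Pax5, was at 0.724, 0.440 and 0.515 FPKM after anti-CD40 and at 0.0231 to 0.353 FPKM in controls. Its log2 fold change was 1.45 (SE 0.39, limma adjusted p = 0.0120), and without anti-CD40 mouse 2 it was 1.28 and no longer called (adjusted p = 0.0612). Bach2, a repressor that delays plasma cell differentiation, had a log2 fold change of -1.01 (SE 0.27, limma adjusted p = 0.0107) and was the 1 factor called lower. With Saa1, Saa2 and Saa3 left out and the mice rescaled, its log2 fold change was -0.68 and not called (limma adjusted p = 0.0580). With quantile normalization it was -1.37 and called (limma adjusted p = 0.00189).

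Signalling genes of the B cell receptor were mostly higher (15 of 18 tested, 1 lower, median 1.48). Blnk, the adaptor that couples SYK to its targets in B cells, was at 7.18 to 9.30 FPKM after anti-CD40 and 0.443 to 1.30 FPKM in controls (log2 fold change 3.30, SE 0.25). The gene called lower was Cd81, a tetraspanin that many liver cells express, at -0.44 (SE 0.10). With quantile normalization Cd81 was at -0.03, and with the Saa genes left out at -0.08, and in neither was it called. Among 10 inhibitory receptors and phosphatases, to which Cd22 is related in function, 8 were higher and none lower (median 1.43). The largest increases were those of Siglecg at 2.40 (SE 0.38), Pirb at 2.11 (SE 0.22) and Inpp5d at 1.79 (SE 0.20). Genes of this list, and of the signalling and transcription factor lists, are not all limited to B cells.

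**Figure D4:**
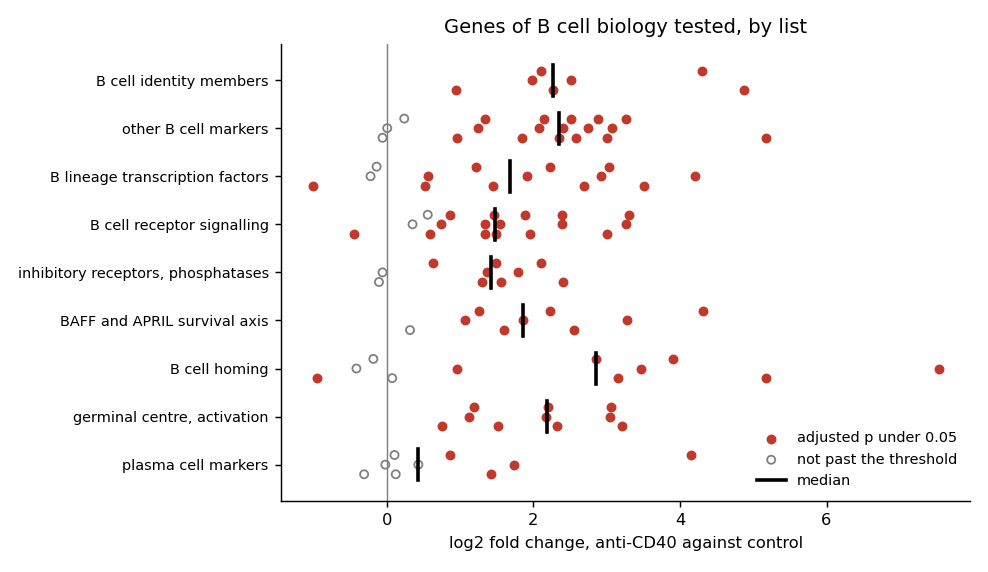
Log2 fold change of every gene tested in 9 lists of B cell biology, anti-CD40 against control, with filled points for an adjusted p under 0.05, open points for the rest and a bar at each list's median. Medians lie between 1.43 and 2.85 except for plasma cell markers, at 0.43.

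The survival axis of B cells changed at both the receptor and the ligand. Tnfrsf13c, the BAFF receptor on mature B cells, was at 3.61 to 4.64 FPKM after anti-CD40 and 0.0326 to 0.285 FPKM in controls (log2 fold change 4.32, SE 0.30, limma adjusted p = 2.82e-06). Tnfsf13b, which encodes BAFF, was at 1.42, 1.09 and 0.931 FPKM after anti-CD40 and 0.111 to 0.454 FPKM in controls (1.86, SE 0.31, limma adjusted p = 7.09e-04). In the whole list 8 of 9 genes tested were higher, none was lower and the median was 1.86. Relb and Nfkb2, which act in the noncanonical NF-kB pathway downstream of CD40 and the BAFF receptor, rose by 3.28 (SE 0.22) and 2.55 (SE 0.16). Tnfrsf13b, which encodes TACI, was at the floor in all mice. Cd40, the target of the antibody, was at 30.9, 20.1 and 21.8 FPKM after anti-CD40 and 0.723 to 2.13 FPKM in controls (4.10, SE 0.29, limma adjusted p = 2.90e-06).

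Among 11 genes of B cell homing, 7 were higher, 1 was lower and the median was 2.85. Ccr6 was at 6.00 to 8.80 FPKM after anti-CD40 and at most 0.286 FPKM in controls, and its ligand gene Ccl20 was at 27.6, 21.2 and 14.3 FPKM after anti-CD40 and at the floor in all controls. Ccl19 rose by 3.90 (SE 0.34). Cxcl12 was lower (-0.95, SE 0.09), and Cxcl13, the B cell follicle chemokine, had a log2 fold change of -0.42 (SE 0.26) that was not called.

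Of 12 genes of activated and germinal centre B cells, 10 were tested and the others fell below the filter. All 10 were higher (median 2.18), with the groups apart in 9. The largest increases were those of Nfkbie at 3.20 (SE 0.22), Cd83 at 3.06 (SE 0.34) and Batf at 3.05 (SE 0.32), none of which is limited to B cells. Plasma cell markers were higher in 4 of 9 tested and lower in none (median 0.43). Mzb1, a chaperone of immunoglobulin assembly also made by marginal zone B cells, rose by 4.16 (SE 0.43), Irf4 by 1.73 (SE 0.24) and Prdm1 by 1.42 (SE 0.33). Jchain, the joining chain of secreted IgM and IgA, was at 0.910 to 0.999 FPKM after anti-CD40 and 0.587 to 1.12 FPKM in controls (0.10, SE 0.19, limma adjusted p = 0.686). The immunoglobulin genes Ighm, Igkc, Ighg1 and Igha were not analysed here.

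Markers of other cells moved in the same mice, and their part in the results for the 8 genes was not tested. The counts of these lists stand beside 23.5% of all genes tested called higher and 21.7% called lower. The tissue label was met by hepatocyte markers, which summed to 9720 to 11347 FPKM after anti-CD40 and 15303 to 29217 FPKM in controls, with 6 of 9 tested lower, among them Alb (log2 fold change -2.43, SE 0.18), and 2 higher, Fgb (0.88) and Apob (0.74). The 8 genes summed to 30.8 to 45.7 FPKM after anti-CD40 and 2.87 to 8.78 FPKM in controls. Markers were higher in 9 of 9 T cell genes tested (summed 14.9 to 17.1 against 3.64 to 6.54 FPKM), 8 of 8 NK cell genes (69.3 to 97.6 against 3.77 to 13.8 FPKM), 9 of 9 neutrophil genes (4220 to 5207 against 18.4 to 156 FPKM) and 7 of 10 monocyte and macrophage genes (167 to 194 against 32.8 to 48.1 FPKM). In the monocyte and macrophage list 1 gene, Fcgr4, was lower (-0.77). Kupffer cell markers were lower in 9 of 10 (59.8 to 76.2 against 315 to 500 FPKM).

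Some cells share genes with the B cell lists, and the part of other cells in the counts of those lists was not tested. Plasmacytoid dendritic cell markers were higher in 6 of 9 tested and summed to 410 to 501 FPKM after anti-CD40 against 16.6 to 38.2 FPKM in controls, a sum made up mainly of Ly6d. None was lower, and Spib (log2 fold change 3.50) and Klk1 (2.88) were among the higher genes, with the groups apart. The defining marker of these cells, Siglech, was at 0.587 to 0.831 against 0.287 to 0.685 FPKM, so its groups overlapped. Ccr9 was not called. Of 6 follicular dendritic cell markers tested, 4 were higher (summed 748 to 845 against 386 to 699 FPKM). Among them were Fcer2a and Cr2 themselves and Mfge8 (log2 fold change 1.86), and Cxcl13 was not called. Fcer2a and Cr2 reached at most 9.68 and 2.10 FPKM in any mouse, so other listed genes made up most of that sum. Lymphatic and high endothelial markers were higher in 4 of 7 (58.5 to 69.2 against 19.6 to 42.0 FPKM), with Madcam1, an adhesion molecule for lymphocytes, up by 4.85 (SE 0.25) and Glycam1 at the floor in all mice.

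Control mouse 4, the highest control for most members, also had the highest control sum of T cell, NK cell, monocyte and neutrophil markers, and its erythroid sum of 24634 FPKM compared with 3341 to 6368 FPKM in the other controls. Erythroid markers were lower in 1 of 7 tested, against 21.7% of all genes tested. They summed to 6475, 2230 and 1825 FPKM in anti-CD40 mice 2, 5 and 9. Platelet markers were higher in 4 of 10 tested (42.8 to 54.6 against 31.7 to 69.0 FPKM). Pancreas acinar markers summed to 1502 FPKM in anti-CD40 mouse 5, to 28.5 and 35.9 FPKM in the other treated mice and to 72.3 to 196 FPKM in controls, and 1 of 15 tested was called higher. Without control mouse 4, the log2 fold changes of the members were 1.92 for Cd79a and otherwise larger than with it, up to 5.12 for Fcer2a.

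**Figure D5:**
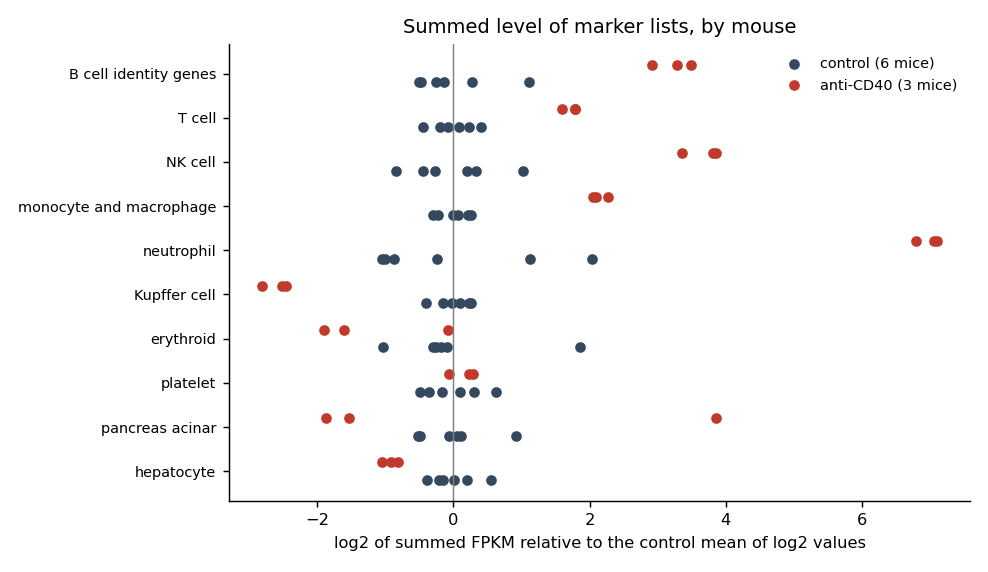
Summed FPKM of the 8 genes and of 9 marker lists of other cells in each mouse, on a log2 scale relative to the control mean of the log2 sums. The B cell sums of the anti-CD40 mice lie above all controls, as do those of T cells, NK cells, monocytes and macrophages, and neutrophils, while Kupffer cell and hepatocyte sums lie below.

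The deposited table holds no read totals. What 1 read adds to an FPKM value ranged over the mice from 0.884 to 1.15 times their common mean, and 15385 to 15545 genes were above the floor in anti-CD40 mice and 14684 to 15397 in controls.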

How the data were processed

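RNA of bulk liver from 9 mice (3 anti-CD40, 6 control) was sequenced with a QuantSeq 3′ kit on a NextSeq 500. The authors aligned reads to mm10 with STAR in BaseSpace and ran Cufflinks and CuffDiff, and they deposited FPKM values with a floor of 0.01, 1 column per mouse. The annotation behind the table is not given in the sources used here. FPKM divides by transcript length although 3′ reads do not scale with length, so no test compared levels between genes. The summed FPKM of a list carries this scaling and is weighted by the genes with the highest values. CuffDiff needs alignments and was replaced by limma on the deposited values.

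Groups came from the sample labels, which give no batch and no pairing. The 15 genes with a failed value were left out. Values were tested as log2(FPKM + 0.1) with limma 3.58.1 (lmFit, eBayes with a trend, 2-sided) in R 4.3.3 on 13807 genes with a mean of at least 0.1 FPKM, with Benjamini-Hochberg adjustment at 0.05. Exact permutation tests ran over 84 splits in scipy 1.17.1. Whole reads were recovered as the smallest numbers fitting all mice within 0.1 reads, so the true numbers could be a multiple, and intervals cover counting error only. For the 8 members the largest distance from a whole read was 0.0563. For Pax5, above the floor in 1 mouse, the fit is exact whatever the value. Scripts were tested on simulated data. Python 3.11.15, numpy 2.4.6, pandas 2.3.3 and matplotlib 3.10.9 were used.

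The members and gene lists were chosen with earlier results of these data known. Named genes were all members, from each list up to 3 called increases and 2 called decreases of the largest size whose groups did not overlap, and Cr2, Ebf1, Cd40, Tnfsf13b and Tnfrsf13c. Some items the rule takes are not reported here. Genes that were not called, such as Cd72, Jchain and Cxcl13, were named after their values were seen. Likeness was Pearson's r over 9 mice, 5 genes per measure. Positions are those of the table with starts counted from 1. GENCODE M21 and RefSeq GRCm38.p6 gave annotation and promoters. The pseudocount, the filter, the scaling, the limma options and the mice were varied. The labels do not say whether the mice came from separate cages or experiments.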

Additional observations from a re-analysis of the deposited data

How the results depend on the processing

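Each of the 7 members tested kept its direction and its call under every alternative in which it passed the filter (19 or 20 each), and the highest adjusted p was 0.0345, for Bank1 without anti-CD40 mouse 9. The size of the log2 fold change followed the pseudocount, from 0.59 (pseudocount 1) to 2.89 (0.01) for Cd79a and from 0.65 to 3.41 for Blk, since these genes are low. With a filter at a mean of 1 FPKM only 4 members were tested, and 4 were higher. With Saa1, Saa2 and Saa3 left out and rescaled, the middle log2 fold change over all genes tested was 0.35, 5635 genes were higher and 1647 lower, and 1 gene of the B cell lists (Cxcl12) was lower instead of 3 (the main values were 3240, 2990 and 75 list genes higher). That rescaling also took Pax5 past the exact permutation threshold (8 members instead of 7) by moving the floor itself. The count of called ratios between members was 23 with a pseudocount of 1 and fell from 19 to 0 with a pseudocount of 0.01, where the groups separated in 13 ratios. It was 0 to 0 with each control mouse left out, where 19 or 20 ratios separated but the smallest exact permutation p is 0.0357. Leaving out anti-CD40 mice was not run for the exact permutation tests, whose smallest p is then 0.0714. Without a filter, limma gave Pax5 a log2 fold change of 0.26 (adjusted p = 0.354). No paired analysis was possible because the groups share no mouse numbers. Cd79a and the control values of Blk rest on few reads. Pax5 was above the floor in 1 mouse only, with a number of reads that could not be recovered. For Pax5, depth and the shorter position in the table were not told apart.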
